A study of Mus musculus with 12 samples.

Results

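Oxidative phosphorylation in mitochondria uses 4 respiratory complexes (I to IV), which pass electrons from NADH and succinate to oxygen and pump protons, and ATP synthase (complex V), which uses the proton gradient to make ATP. Most of their subunits are encoded in the nucleus, translated in the cytosol and imported, and they are assembled with a small set of subunits encoded by mitochondrial DNA. In macrophages, LPS is known to shift energy metabolism toward glycolysis, and succinate dehydrogenase (complex II), which is shared with the tricarboxylic acid cycle, is known for its part in the inflammatory response.

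The 82 nuclear-encoded subunit genes described here were taken by symbol from 20551 genes in the count table of airway macrophages (AMs). They are protein-coding nuclear genes whose GENCODE mouse symbols start with Ndufa, Ndufb, Ndufc, Ndufs or Ndufv (38 genes of complex I), Sdha to Sdhd (4 genes of complex II), Uqcr (8 genes of complex III), Cox4 to Cox8 (15 genes of complex IV) or Atp5 (17 genes of complex V). The rule itself used no measured value, but it was chosen with earlier results of these data known. Assembly factors named Ndufaf were left out. Cyc1 and Usmg5, a complex III and an ATP synthase subunit whose symbols lie outside the rule, are not among the 82. Another 4 genes that meet the symbol rule, among them Cox7b2, Cox8b and Cox8c, had no row in the table. The symbols name subunits of the complexes, with exceptions. Ndufa4 is counted with complex I by its symbol, although it is now known as a subunit of complex IV, and Atp5s is linked to ATP synthase rather than a subunit of its core.

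AMs were taken from wild-type (WT) C57BL/6 mice and from Scnn1b-transgenic (Scnn1b-Tg) C57BL/6 mice, a model of muco-obstructive lung disease in which the club cell secretory protein promoter drives the transgene in airway epithelium. Cells of each pool were cultured for 12 h in medium or with Pseudomonas aeruginosa LPS at 100 ng/ml, which gave 4 groups of 3 libraries, a medium and an LPS group in either genotype. Each pool held cells of 3 to 4 animals and gave 1 medium and 1 LPS library, with the pools numbered 16, 17 and 18 in WT and 17, 18 and 19 in Scnn1b-Tg. The study's methods give 6-week-old female mice for sorted and sequenced cells. The accounts of isolation differ, since the labels describe adherent cells from lavage and the methods describe sorting from digested lung. Pools WT 16, WT 17 and Scnn1b-Tg 17 were batch 1 and the others were batch 2.

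The libraries held 48191248 to 60896505 counts. Members made up 0.661% to 1.0% of the counts of a library, so counting error was small beside the spread between pools for all but the lowest members. The label of airway macrophages was checked against 11 alveolar macrophage markers, whose summed level was 8598 to 17356 CPM (counts scaled for the depth and composition of each library) over the 12 libraries. Summed markers of other cells were 0.672 to 2.05 CPM for monocytes, 10.1 to 28.8 CPM for neutrophils, up to 1.16 CPM for T or NK cells, up to 1.12 CPM for B cells, up to 0.301 CPM for erythroid cells and 32.8 to 113 CPM for epithelium. With LPS, 7 of the 11 macrophage markers fell and 2 rose in WT, and 8 fell and 2 rose in Scnn1b-Tg, and their part in the members' changes was not tested. In bulk RNA, fewer cells of a type and less RNA per cell cannot be told apart.

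Both LPS libraries numbered 17 stood apart from the other LPS libraries before any comparison. Relative to their own group means, the median member lay at -0.38 on the log2 scale in WT LPS 17 and at -0.32 in Scnn1b-Tg LPS 17. The shortfall was larger for short transcripts. Members with transcripts of up to 700 bases lay at a median of -0.48 and -0.47 in these libraries, and those over 1700 bases at -0.19 and -0.15. Protein-coding genes that are no members showed the same order, with -0.49 and -0.42 up to 700 bases against 0.10 and 0.08 over 1700 bases. The median longest transcript of the members was 1003 bases, against 3323 bases for the protein-coding genes tested. The LPS counts and the called members are therefore also given without these libraries.

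Sites of nuclear respiratory factor 1 (NRF1), a transcription factor known to bind promoters of nuclear respiratory genes, were looked for in the members' promoters as a shared feature that the symbol rule did not use. RefSeq windows (assembly GRCm38.p6) from 250 bases before to 50 bases after the start site were matched for 65 of the 82 members. The letters GCGCA and GCGC with 1 base of any kind between them, searched on both strands, were found in 17 of these 65 members (26.2%), against 7.17% of 17492 protein-coding genes. The letters CCGGAAG (the ETS family) were found in 16 members (24.6%, against 12.9%) and AANATGGC (YY1) in 16 members (24.6%, against 7.46%). At least 1 of the 3 was found in 64.6% of members and in 23.9% of protein-coding genes, and in no member window did ETS and YY1 matches share bases. The stretches below are shown for 2 members of complex II, the complex whose summed level did not overlap between medium and LPS, and for a complex IV and an ATP synthase member with the same letters. All lie upstream of the annotated start and are read on the minus strand, with the NRF1 letters in capitals.
Sdha (chr13:74350281-74350350): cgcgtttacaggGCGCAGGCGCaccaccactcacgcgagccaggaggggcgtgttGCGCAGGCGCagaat
Sdhd (chr9:50603907-50603940): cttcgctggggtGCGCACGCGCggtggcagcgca
Cox6a1 (chr5:115349054-115349132): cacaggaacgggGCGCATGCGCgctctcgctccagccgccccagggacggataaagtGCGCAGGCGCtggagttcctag
Atp5h (chr11:115420039-115420072): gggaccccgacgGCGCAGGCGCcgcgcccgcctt
These matches describe the letters and not binding. Of the 12 members that passed the test in either LPS comparison (below), 8 had a window, and of these Sdha held the NRF1 letters, Ndufa9 held the YY1 letters and none held the ETS letters.

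AMs expressed the subunits of all 5 complexes. Levels of different genes are compared per length, as CPM divided by the length of all exons and scaled as TPM values are. In WT medium the median level per length was 126 over the 80 members tested, against 9.24 over all genes tested. The medians were 103 for complex I, 276 for complex II, 184 for complex III, 140 for complex IV and 94.2 for complex V. The highest levels per length in WT medium were those of the complex IV subunit Cox6a1 (712 ± 82.7, SD, n = 3), the catalytic ATP synthase subunit Atp5b (677 ± 15.5), and the complex IV subunits Cox6b1 (660 ± 91.3) and Cox8a (614 ± 86.1). These neighbours lay within their spread of each other, and with the longest transcript as the length Atp5b came first at 1191.

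The isoform families of complex IV were far from balanced. The widely expressed forms Cox4i1, Cox6a1, Cox6b1, Cox7a2 and Cox8a carried the level, and the forms known from muscle, heart, lung or testis were low or near 0. Cox7a1, the form known from heart and skeletal muscle, had 5.28 per length in WT medium, against 250 for Cox7a2. Cox6a2, the striated muscle form, had 5.23 and Cox6b2, the testis form, 3.99. Cox4i2 had 3 counts in 1 WT medium library and 0 in the other 11. Ndufa4l2, the hypoxia-linked relative of Ndufa4, had 3 counts in WT medium 16, 8 in Scnn1b-Tg LPS 19 and 0 elsewhere. Cox4i2 and Ndufa4l2 did not pass the filter on low counts, which left 80 members tested.

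The summed levels of complexes I, II and V were lower with LPS than in medium in all 6 pools, and those of complexes III and IV in 5 of 6. Without regard to pool, the sums of complex II did not overlap between medium and LPS, and those of the other complexes overlapped in both genotypes. The LPS library numbered 17 had the lowest sum of its genotype in every complex. Complex II summed to 1002, 970 and 997 CPM in WT medium 16, 17 and 18, and to 875, 755 and 792 CPM in WT LPS. In Scnn1b-Tg it summed to 1053, 1030 and 1018 CPM in medium 17, 18 and 19, and to 806, 858 and 874 CPM with LPS. All 6 LPS libraries lay under all 6 medium libraries. Sdha alone held a mean of 428 CPM of the mean sum of 990 CPM in WT medium. Taken singly, Sdhb, Sdhc and Sdhd each overlapped between medium and LPS in WT, and in Scnn1b-Tg they did not.

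Complex I summed to 2684, 2255 and 2428 CPM in WT medium and 2415, 1653 and 2289 CPM in WT LPS, and to 2460, 2731 and 2475 CPM in Scnn1b-Tg medium and 1761, 2474 and 2333 CPM in Scnn1b-Tg LPS. Complex III means were 926 and 852 CPM in WT and 882 and 861 CPM in Scnn1b-Tg, in medium and LPS. Complex IV means were 1346 and 1248 CPM in WT and 1441 and 1285 CPM in Scnn1b-Tg. Complex V summed to 3150 to 3445 CPM in WT medium and 2840 to 3151 CPM in WT LPS, with the ranges overlapping at their ends.

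**Figure D1:**
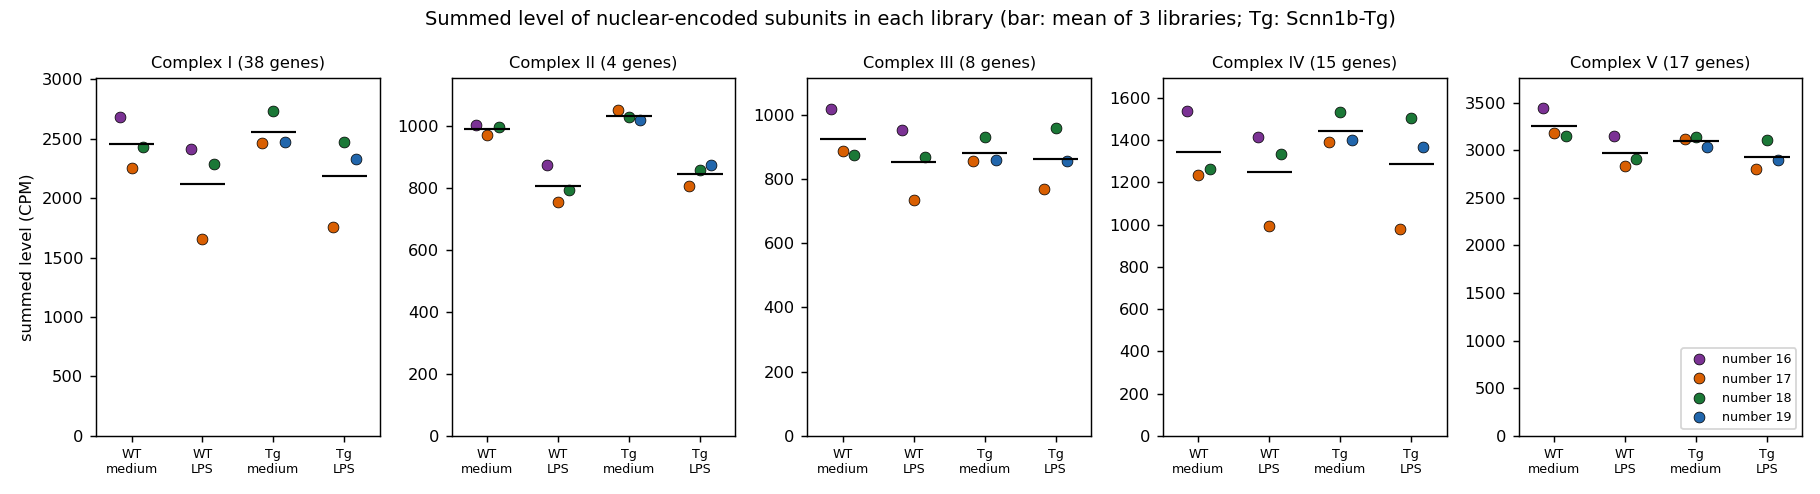
Summed level in CPM (y axis) of the members of each complex in each of the 12 libraries, by group (x axis), with points coloured by pool number and bars for the mean of 3 libraries. For complex II the LPS libraries (755 to 875 CPM) lie under the medium libraries (970 to 1053 CPM), and in every complex the LPS library numbered 17 is the lowest of its genotype.

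The first comparison asked how LPS changed the subunits in WT AMs. Of the 80 members tested, 10 fell and 0 rose at an adjusted p under 0.05 (edgeR quasi-likelihood test, adjusted over 13729 genes). Over all genes tested, 15.8% fell and 15.2% rose, and 40.1% had an unadjusted p under 0.05. In this fit, which does not pair the libraries of a pool, the share of members that fell (12.5%) was not above that of all genes. No member rose, and 14 members (17.5%) had an unadjusted p under 0.05. The LPS libraries lay under all medium libraries for 12 members, where this held for 20% of all genes (2752 genes), and above them for 0, where this held for 18.7%. The median log2 fold change of the members was -0.19, against 0.00 over all genes tested, and 70 of the 80 fitted changes lay below 0. Most changes were therefore small and the fitted direction was mostly downward. The members share the same libraries, so their number is not a number of independent observations. The standard error of the median estimated from the libraries was 0.22, larger than the median shift itself.

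In Scnn1b-Tg AMs, 7 of the 80 members fell with LPS and 0 rose, where 17.8% of all genes tested fell and 18.8% rose. An unadjusted p under 0.05 was found for 13 members and for 44.6% of all genes. The LPS libraries lay under all medium libraries for 19 members (21.5% of all genes) and above them for 0 (22.3% of all genes). The median log2 fold change was -0.21, against -0.02 over all genes tested, and 71 fitted changes lay below 0. The standard error of this median estimated from the libraries was 0.18, close to the size of the shift. The 2 LPS comparisons use different libraries, but these were not independent for the members. The members' deviations from their group means correlated between the WT and Scnn1b-Tg LPS libraries of the same number. The correlation was 0.88 for number 17 and 0.76 for number 18. The share of all genes called in both comparisons was not counted. Called in both were 5 members, Atp5a1, Cox6b2, Cox7a1, Ndufs1 and Sdha, which are 5 of the 10 WT calls and 5 of the 7 Scnn1b-Tg calls.

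The medium and LPS library of a pool came from the same animals. With the pool as a block, 21 of the 80 members fell in WT and 22 of the 80 in Scnn1b-Tg, and 0 rose in either. Of all genes, 18.7% and 20.9% fell in that fit, so the members' shares were then above those of all genes. Without both LPS libraries numbered 17, which was tried after seeing the data, 7 fell and 1 rose in WT and 6 fell and 0 rose in Scnn1b-Tg, and the median change was -0.06 and -0.05. In the same fit 14.7% of all genes fell in WT and 16.5% in Scnn1b-Tg. The 1 member that rose there was Cox7a2, the widely expressed Cox7a form, at 0.45 (adjusted p = 0.0419). Much of the general downward shift thus moved with those libraries, and the part played by their short-transcript shortfall was not tested. It also moved with other single libraries. The WT median was -0.08 without WT medium 16, -0.08 without WT LPS 17 and -0.34 without WT LPS 16. The Scnn1b-Tg median was -0.08 without Scnn1b-Tg LPS 17 and -0.30 without Scnn1b-Tg LPS 18.

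**Figure D2:**
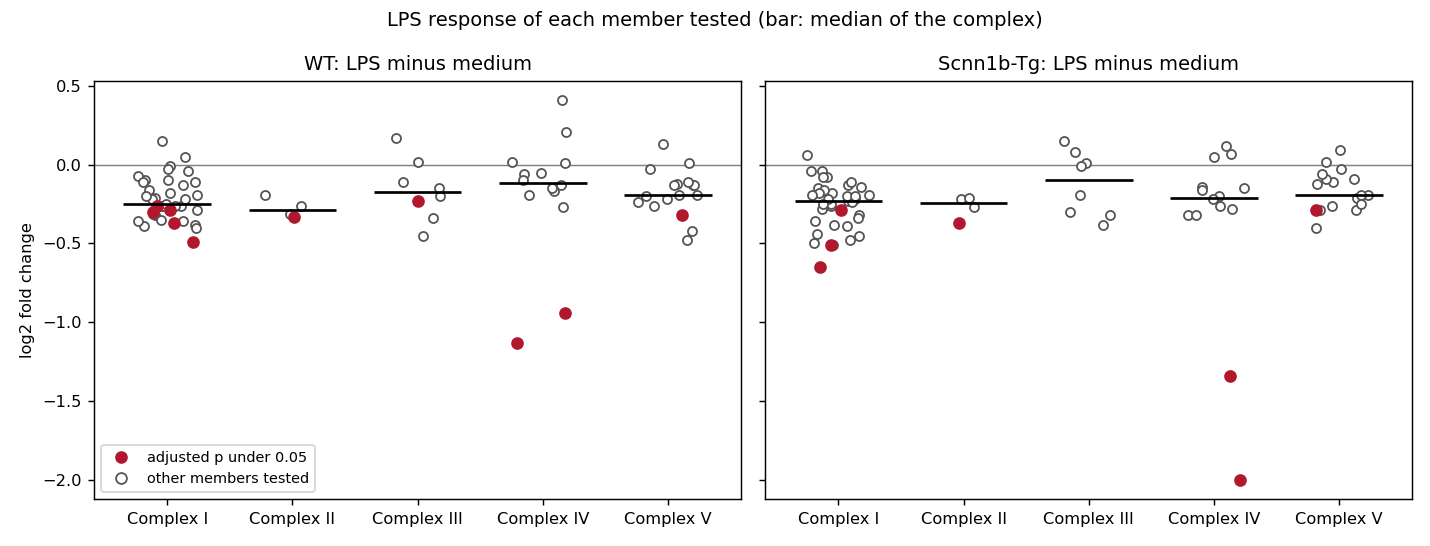
Fitted log2 fold change, LPS minus medium (y axis), of each of the 80 members tested in WT (left) and Scnn1b-Tg (right), by complex (x axis). Filled points have an adjusted p under 0.05 and bars are medians. In both panels the called members lie below 0 and the 2 largest falls are in complex IV.

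Within single pools the members' median change was lowest in the pools numbered 17. In WT it was -0.14 in pool 16, -0.41 in pool 17 and -0.05 in pool 18, and in Scnn1b-Tg -0.46 in pool 17, -0.10 in pool 18 and -0.08 in pool 19, on the scale log2(CPM + 0.5). The median over all genes tested lay between -0.02 and 0.00 in every pool. Members with transcripts over 1000 bases, a limit chosen after seeing the data, had medians of -0.15, -0.39 and -0.13 in WT and -0.33, -0.13 and -0.12 in Scnn1b-Tg. Those up to 1000 bases had -0.12, -0.43 and 0.11 in WT and -0.58, -0.06 and -0.06 in Scnn1b-Tg. The longer members were thus below 0 in all 6 pools and the shorter ones in 5. Within batches the median of all members was -0.28 in batch 1 and -0.05 in batch 2 in WT, and -0.46 and -0.08 in Scnn1b-Tg.

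**Figure D3:**
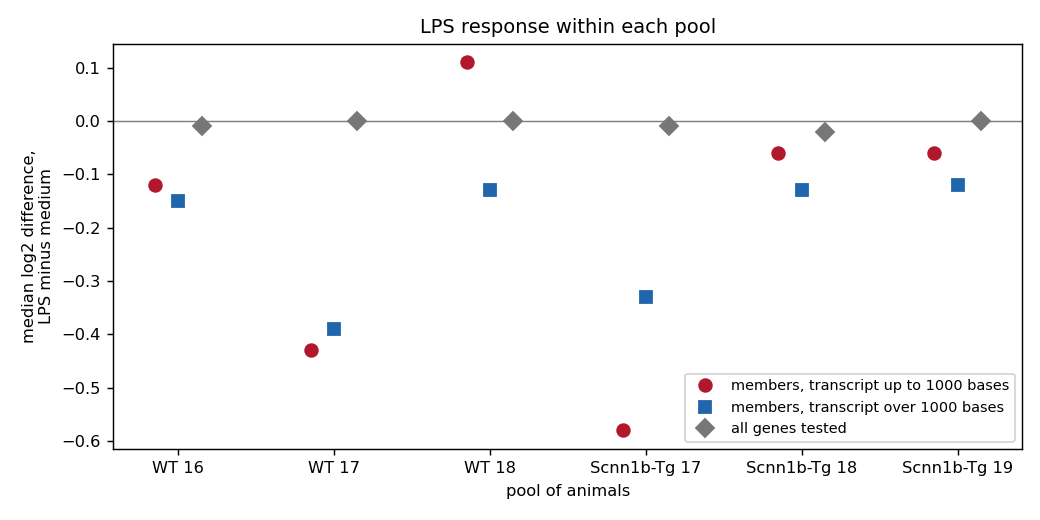
Median log2 difference, LPS minus medium (y axis), within each of the 6 pools (x axis), for members with transcripts up to 1000 bases, members over 1000 bases and all genes tested. Pools numbered 17 are lowest in both genotypes, and the longer members are below 0 in every pool.

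Complex I passes electrons from NADH to ubiquinone. Of its 37 members tested, 5 fell in WT (13.5%) and 3 in Scnn1b-Tg (8.11%). These shares were not above those of all genes tested (15.8% and 17.8%). Ndufs1, the largest subunit, which carries iron-sulfur clusters, had 114, 119 and 107 CPM in WT medium and 103, 91.3 and 84.5 CPM in WT LPS. In Scnn1b-Tg it had 114, 103 and 107 CPM in medium and 94.9, 82.5 and 88 CPM with LPS. In both genotypes every LPS library lay under every medium library. The log2 fold change was -0.29 (SE 0.07) in WT (adjusted p = 0.00926, edgeR) and -0.29 (SE 0.07) in Scnn1b-Tg (adjusted p = 0.00746), and it passed the test without the LPS libraries numbered 17 (adjusted p = 0.0399 and 0.0224). The WT call was lost without WT medium 18 (adjusted p = 0.063), without WT LPS 18 (0.0518), without the batch term (0.0518) and with the 6 WT libraries alone (0.112), and the Scnn1b-Tg call held in all 25 alternatives. Exons of Ndufs1 overlap Eef1b2 and Ino80dos, and the study's methods give alignment without strand, so reads of overlapping genes cannot be told apart by strand.

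The flavoprotein subunit Ndufv1, which takes electrons from NADH, fell in WT alone by the test, but the difference between genotypes did not pass it. It had 90.6, 92.4 and 70.2 CPM in WT medium and 72.6, 64 and 58.7 CPM in WT LPS (log2 fold change -0.37, SE 0.08, adjusted p = 0.00443). In Scnn1b-Tg it had 90.5, 75.1 and 75.5 CPM in medium and 79.3, 75.1 and 68.4 CPM with LPS (-0.11, SE 0.08, adjusted p = 0.323). The WT groups overlapped through the lower medium library of pool 18, and every WT pool was lower with LPS. The WT call was lost without the batch term (adjusted p = 0.0574) and with the 6 WT libraries alone (0.0631). Its partner Ndufv2, also of the NADH module, changed by -0.49 (SE 0.15) in WT (adjusted p = 0.0263) and -0.36 (SE 0.15) in Scnn1b-Tg (adjusted p = 0.0797). Without the LPS libraries numbered 17 its WT change was -0.34 (adjusted p = 0.0546), which did not pass. The WT call was lost in 6 of 25 alternatives, among them those without WT medium 16, WT medium 18, WT LPS 17 or WT LPS 18 (adjusted p = 0.0724 to 0.0915), and with the pool as a block Ndufv2 passed in Scnn1b-Tg (adjusted p = 0.0239).

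Ndufa9, an accessory subunit named here after its values were seen, fell in WT by 0.26 on the log2 scale (SE 0.08, adjusted p = 0.0283), and without the LPS libraries numbered 17 the adjusted p was 0.0902. The Ndufa9 call held in 16 of 25 alternatives. Among the losses were the fits without any 1 of WT medium 16, 17 or 18 or WT LPS 17 or 18. The core subunits Ndufs3, Ndufs7 and Ndufs8 had changes of -0.20, -0.26 and -0.22 in WT and -0.19, -0.25 and -0.20 in Scnn1b-Tg and did not pass the test. With the pool as a block Ndufs3 passed in WT (adjusted p = 0.0461) and Ndufs7 in both genotypes (0.0238 and 0.0281).

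The accessory subunits Ndufa12 and Ndufv3 passed the test in Scnn1b-Tg. Ndufa12 had 24.6, 28.6 and 38.7 CPM in Scnn1b-Tg medium and 16.4, 23.9 and 18 CPM in Scnn1b-Tg LPS, with a log2 fold change of -0.65 (SE 0.20, adjusted p = 0.0231), and 0.0596 without the LPS libraries numbered 17. This call was also lost without Scnn1b-Tg LPS 17 alone (adjusted p = 0.0852), Scnn1b-Tg medium 19 (0.106) or Scnn1b-Tg LPS 19 (0.0965). A near-identical gene in the table holds 14.5% of the counts of Ndufa12, so its level is uncertain by that share. Ndufv3 had 52.7, 59.6 and 56.6 CPM in medium and 31.4, 44.7 and 42.9 CPM with LPS, with no overlap and a change of -0.51 (SE 0.15, adjusted p = 0.0221, and 0.0293 without those libraries). The Ndufv3 call was lost without Scnn1b-Tg LPS 17 alone (adjusted p = 0.112), Scnn1b-Tg medium 17 (0.0679) or Scnn1b-Tg medium 18 (0.0642). In WT the changes of these genes were -0.38 and -0.36 and did not pass.

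Complex II oxidises succinate and feeds electrons to ubiquinone. All 4 members had fitted changes below 0 in both genotypes, and in every pool. Sdha, the catalytic flavoprotein, had 415, 462 and 407 CPM in WT medium and 341, 375 and 307 CPM in WT LPS. In Scnn1b-Tg it had 490, 412 and 435 CPM in medium and 367, 319 and 350 CPM with LPS. The groups did not overlap in either genotype. Sdha fell by 20.5% in WT (log2 fold change -0.33, SE 0.07, adjusted p = 0.00597) and by 22.5% in Scnn1b-Tg (-0.37, SE 0.07, adjusted p = 0.0027), and it passed without the LPS libraries numbered 17 (adjusted p = 0.00761 and 0.00923). With the 6 WT libraries alone Sdha did not pass in WT (adjusted p = 0.0506). Its change was -0.28, -0.30 and -0.41 in the WT pools and -0.42, -0.37 and -0.31 in the Scnn1b-Tg pools.

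The other members of complex II did not pass. Sdhb, the iron-sulfur subunit, changed by -0.31 in WT (adjusted p = 0.0839) and -0.27 in Scnn1b-Tg (adjusted p = 0.121). The membrane anchors Sdhc and Sdhd changed by -0.19 and -0.26 in WT and by -0.22 and -0.21 in Scnn1b-Tg. With the pool as a block, Sdhb, Sdhc and Sdhd passed in both genotypes (adjusted p = 0.0156, 0.0368 and 0.014 in WT and 0.0307, 0.0233 and 0.0353 in Scnn1b-Tg). Without the LPS libraries numbered 17 their changes were -0.17, -0.10 and -0.14 in WT and -0.17, -0.18 and -0.12 in Scnn1b-Tg and did not pass.

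Complex III passes electrons from ubiquinol to cytochrome c. Of its 8 members, 1 fell in WT (12.5%) and 0 in Scnn1b-Tg, where 15.8% and 17.8% of all genes tested fell. Uqcrc2, a core subunit, had 167, 157 and 169 CPM in WT medium and 154, 130 and 136 CPM in WT LPS, without overlap. Its log2 fold change was -0.23 (SE 0.08) with an adjusted p of 0.0496, at the edge of the threshold, and 0.134 without the LPS libraries numbered 17. It passed in 8 of 25 alternatives. In Scnn1b-Tg the change was -0.01 (SE 0.08). Uqcrc1, the other core subunit, changed by -0.15 and 0.01, and the iron-sulfur subunit Uqcrfs1 by 0.02 and 0.15, in WT and Scnn1b-Tg, and neither passed. Cyc1, outside the rule, changed by -0.11 in WT and 0.00 in Scnn1b-Tg and did not pass.

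Complex IV reduces oxygen to water. Its largest falls were in the scarce isoforms Cox7a1 and Cox6b2, at levels where 12 to 188 counts were read per library. Cox6a2, also scarce, had fitted changes above 0 in both genotypes and did not pass. Its level per length was 5.23 in WT medium and 6.7 in WT LPS, and 8.12 and 8.1 in Scnn1b-Tg. Cox7a1 had 1.11, 0.998 and 1.17 CPM in WT medium and 0.579, 0.572 and 0.548 CPM in WT LPS. In Scnn1b-Tg it had 1.25, 1.54 and 1.35 CPM in medium and 0.211, 0.456 and 0.38 CPM with LPS. The groups did not overlap in either genotype, and the LPS libraries of Scnn1b-Tg lay under those of WT. Cox7a1 fell to 0.522 of its medium level in WT (log2 fold change -0.94, SE 0.28, adjusted p = 0.0262) and to 0.25 in Scnn1b-Tg (-2.00, SE 0.29, adjusted p = 0.000278), and it passed without the LPS libraries numbered 17 (adjusted p = 0.0407 and 0.00237). The Scnn1b-Tg call held in all 25 alternatives. The WT call held in 18 of 25, and was lost without any 1 of WT medium 16, 17 or 18 or WT LPS 17 or 18 (adjusted p = 0.0514 to 0.112), with the 6 WT libraries alone (0.0664) and with counts divided by 5 (0.0686).

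Cox6b2 had 1.11, 1.77 and 2.25 CPM in WT medium and 0.759, 0.729 and 0.812 CPM in WT LPS. In Scnn1b-Tg it had 1.87, 3.58 and 3.23 CPM in medium and 1.18, 1.01 and 1.12 CPM with LPS. No groups overlapped within a genotype. Its log2 fold change was -1.13 (SE 0.27) in WT (adjusted p = 0.00857) and -1.34 (SE 0.27) in Scnn1b-Tg (adjusted p = 0.00236), and it passed the test in all 25 alternatives in each genotype. The widely expressed forms did not pass in either genotype. Cox4i1 changed by -0.27 and -0.14, Cox5a by -0.17 and -0.16, Cox5b by -0.13 and -0.20, Cox6a1 by -0.06 and -0.15, and Cox6b1 by -0.10 and -0.28, in WT and Scnn1b-Tg. With the pool as a block Cox5a passed in both (adjusted p = 0.0451 and 0.0423). Cox7a2, also widely expressed, went the other way, with fitted changes above 0 in both genotypes. It did not pass in the main fit and passed as a rise in WT in 3 of 25 alternatives.

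Complex V makes ATP. Atp5a1, a subunit of the catalytic head, had 611, 642 and 515 CPM in WT medium and 460, 531 and 426 CPM in WT LPS, and 622, 495 and 580 CPM in Scnn1b-Tg medium and 520, 440 and 430 CPM with LPS. The groups overlapped through the lower medium library of pool 18, and every pool was lower with LPS. It fell by 19.7% in WT (log2 fold change -0.32, SE 0.08, adjusted p = 0.0116) and by 18.3% in Scnn1b-Tg (-0.29, SE 0.08, adjusted p = 0.0151), and passed without the LPS libraries numbered 17 (adjusted p = 0.0123 and 0.0271). The call was lost without the batch term in WT (adjusted p = 0.0955) and Scnn1b-Tg (0.115), with the 6 WT libraries alone (0.0583), and in Scnn1b-Tg without medium 19 (0.0748) or LPS 19 (0.0562). Its exons overlap Haus1.

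The catalytic partner Atp5b, which assembles with Atp5a1 in the same head, stayed close to its medium level. It had 1094, 1119 and 1114 CPM in WT medium and 1149, 1161 and 1049 CPM in WT LPS, and 1093, 959 and 1032 CPM in Scnn1b-Tg medium and 1117, 1072 and 1095 CPM with LPS. The fitted changes were 0.01 (95% interval -0.13 to 0.16) in WT and 0.09 (-0.05 to 0.24) in Scnn1b-Tg, so a change as large as that of Atp5a1 lay outside both intervals. The ATP synthase subunits Atp5c1, Atp5d and Atp5e changed by -0.26, -0.03 and -0.12 in WT and by -0.21, 0.02 and -0.29 in Scnn1b-Tg and did not pass. The membrane ring genes Atp5g1, Atp5g2 and Atp5g3 changed by -0.19, -0.20 and -0.22 in WT and by -0.12, -0.19 and -0.11 in Scnn1b-Tg and did not pass, and near-identical genes hold 95.3% and 21.9% as many counts as Atp5g1 and Atp5g2. With the pool as a block Atp5c1 (adjusted p = 0.0148 and 0.0352) and Atp5g2 (0.0391 and 0.0441) passed in both genotypes and Atp5g3 in WT (0.0365).

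**Figure D4:**
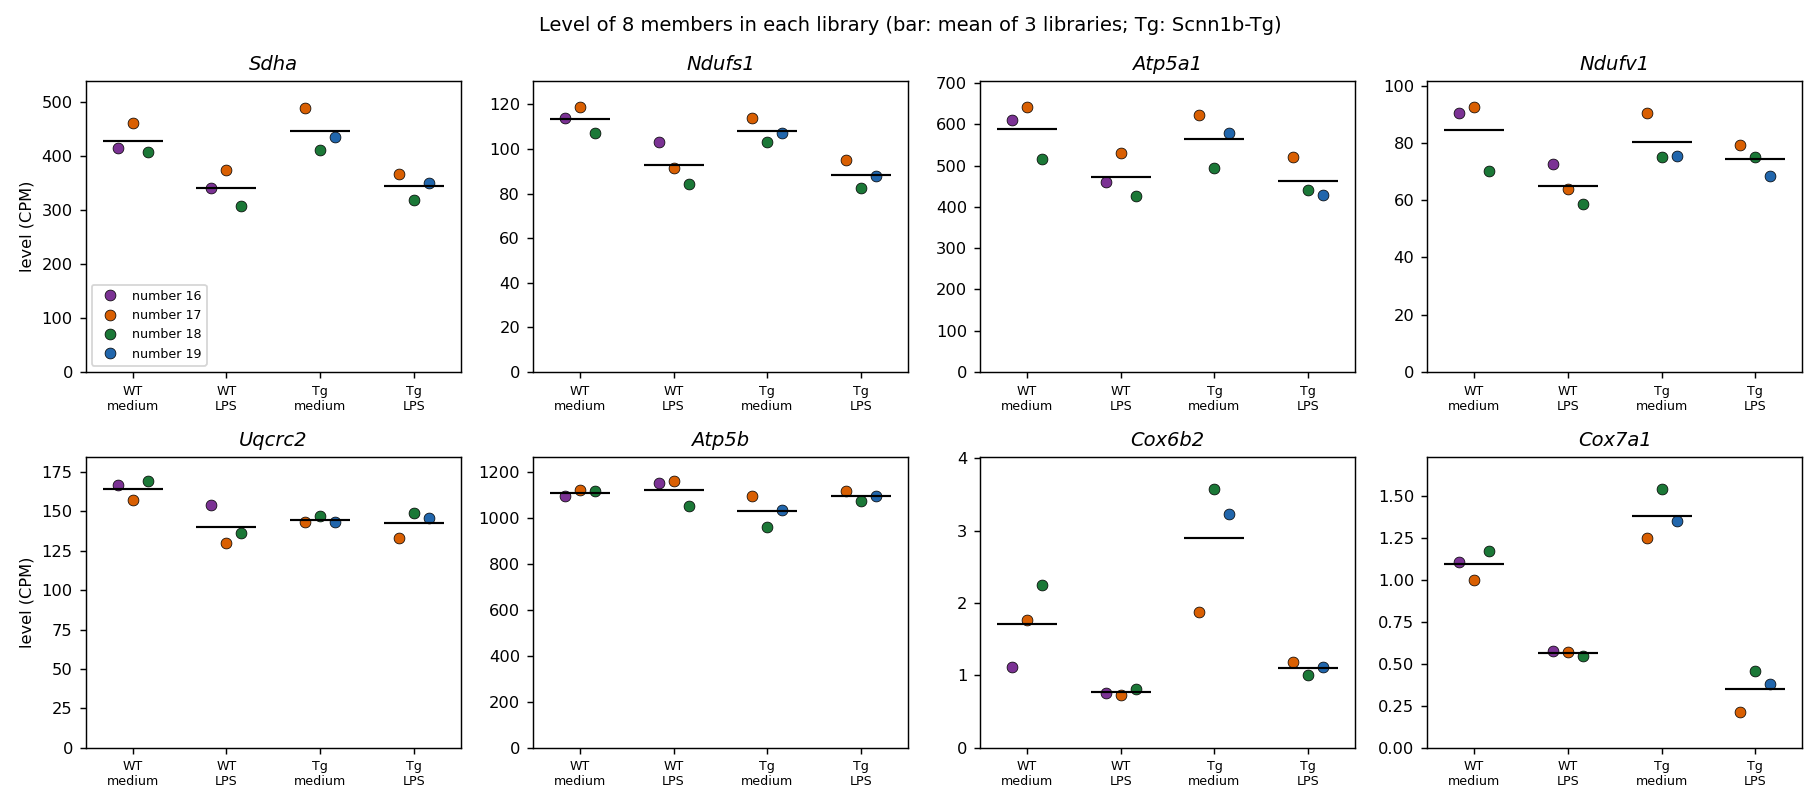
Level in CPM (y axis, from 0) of 8 members in each of the 12 libraries, by group (x axis), with points coloured by pool number and bars for means. Sdha, Ndufs1, Cox6b2 and Cox7a1 do not overlap between medium and LPS within a genotype, while Atp5b lies between 959 and 1161 CPM in all groups.

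The genotype comparisons asked whether the subunits differed between Scnn1b-Tg and WT AMs. In medium, 0 of 80 members passed the test, where 0.277% of all genes tested did, and with LPS 0 of 80 passed, where 0.0510% did. An unadjusted p under 0.05 was found for 2 members in each, against 13% (1781 genes) and 6.73% of all genes. In medium the Scnn1b-Tg libraries lay above all WT libraries for 4 members (9.02% of all genes) and under them for 2 (9.38%), and with LPS for 1 (5.72%) and 1 (3.39%). The median log2 difference, Scnn1b-Tg minus WT, was -0.01 in medium and -0.03 with LPS. The standard errors of these medians estimated from the libraries were 0.11 and 0.26, so a general shift of such size could go unseen. The 95% interval of the difference lay within 0.5 on either side of 0 for 36 of 80 members in medium and 36 with LPS, and within 1 for 77 and 76. For the remaining members differences of 0.5 or more lay within the interval. Without the LPS libraries numbered 17 the median difference with LPS was 0.01, and 0 members passed.

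As no member passed, the 5 with the lowest unadjusted p are named for each. In medium these were Uqcrc2 (-0.20), Cox6b2 (0.62), Cox6a2 (0.60), Atp5f1 (-0.35) and Uqcrc1 (-0.11), of which the lowest adjusted p by edgeR was 0.333. With LPS they were Ndufv1 (0.28), Cox7a1 (-0.82), Ndufc1 (0.43), Ndufb5 (-0.25) and Cox6b2 (0.41), of which the lowest adjusted p was 0.387. Near-identical genes hold more counts than Ndufc1 itself (137%), so its value is uncertain. Summed neutrophil markers were 10.1 to 14.5 CPM in WT and 15 to 28.8 CPM in Scnn1b-Tg libraries, and summed epithelial markers 77.1 to 113 CPM and 32.8 to 70.7 CPM, and their part in the genotype values was not tested. Within batches the members' median difference was -0.01 in batch 1 and 0.13 in batch 2 in medium, and -0.20 and 0.05 with LPS, so its sign changed between batches.

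The difference in LPS response between genotypes was tested with an interaction term. No member passed, and 0 genes of the 13729 (0.00%) did in edgeR, while 5.81% of all genes and 2 members had an unadjusted p under 0.05. The members with the lowest unadjusted p were Cox7a1 (-1.06, 95% interval -1.94 to -0.18, adjusted p = 0.765), Ndufv1 (0.26), Uqcrc2 (0.22), Uqcrc1 (0.17) and Atp5f1 (0.45). The median interaction over the members was -0.01, and -0.04 without the LPS libraries numbered 17, where 0 members passed. When 1 library was left out, this median ran from -0.16 (without WT LPS 17) to 0.14 (without WT LPS 16). Its sign thus depended on single libraries.

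The genes that assemble, supply and regulate the complexes did not share 1 direction. Their counts stand beside 15.8% of all genes falling and 15.2% rising with LPS in WT, and 17.8% and 18.8% in Scnn1b-Tg, and several lists lie near these shares. Of the 13 subunits encoded by mitochondrial DNA, 0 passed in either LPS comparison, with medians of 0.09 in WT and -0.03 in Scnn1b-Tg. Of 16 complex I assembly factors, 3 fell and 0 rose in each genotype, Ndufaf7 (-1.02 and -1.0), Nubpl (-0.58 and -0.63) and Tmem126b (-0.45 and -0.39), and the list medians were -0.16 and -0.10. None of 4 complex II assembly factors passed. Of 6 complex III factors, Ttc19 rose (0.90 and 0.96) and Bcs1l fell (-0.44 and -0.39). Of 23 complex IV factors, 2 rose and 0 fell in WT and 2 rose and 1 fell in Scnn1b-Tg, with Cox18 rising in both (0.31 and 0.45), Coa5 in WT (0.33), and in Scnn1b-Tg Sco2 rising (0.50) and Surf1 falling (-0.49). Of 4 ATP synthase factors, 0 passed in WT, and in Scnn1b-Tg Atpaf1 (-0.44) and the inhibitor Atpif1 (-0.73, adjusted p = 0.0498) fell.

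Among 16 electron and metabolite carriers, 6 fell and 0 rose in WT and 4 fell and 1 rose in Scnn1b-Tg. The uncoupling protein family member Ucp2 fell most (-1.68 and -1.98), with means of 1081 CPM in WT medium, 338 CPM in WT LPS, 1222 CPM in Scnn1b-Tg medium and 310 CPM in Scnn1b-Tg LPS. The ubiquinone synthesis genes Coq8a (-0.77 and -1.17) and Coq9 (-0.56 and -0.79) also fell. Cycs, cytochrome c, rose in Scnn1b-Tg (0.43, adjusted p = 0.0394) and changed by 0.27 in WT. Of 13 regulators of respiratory genes, 12 were tested. Ppargc1b, a coactivator of mitochondrial biogenesis, fell (-1.13 and -1.34), as did Tfb2m, a mitochondrial transcription factor (-0.34 and -0.44), and the nuclear receptor Esrra rose (0.33 and 0.60). Gabpb1 (0.57) and Pprc1 (0.51) rose in Scnn1b-Tg.

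Of 8 small respiratory and stress-linked genes, AA467197, known as the mouse NMES1 gene and a relative of the Ndufa4 family, rose most (4.62 and 4.78), with 2.82 CPM in WT medium, 67.6 CPM in WT LPS, 4.81 CPM in Scnn1b-Tg medium and 130 CPM in Scnn1b-Tg LPS. In the same list Hif1a, the hypoxia-inducible factor subunit, rose (0.93 and 1.06) and Chchd10 fell (-0.53 and -0.49), and Higd2a fell in Scnn1b-Tg (-0.53). Of 19 import and outer membrane genes, 3 rose in WT and 6 in Scnn1b-Tg and 0 fell, among them the translocase subunit Timm17a (0.61 and 0.91) and the channel Vdac3 (0.43 and 0.69), with the import receptor Tomm70a (0.27 and 0.28) and, in Scnn1b-Tg, Timm23 (0.51). Of 77 mitochondrial ribosome genes, 4 rose and 5 fell in WT and 12 rose and 2 fell in Scnn1b-Tg, with Mrpl39 (0.53 and 0.85) and Mrpl52 (0.82 and 1.02) rising and Mrps34 (-0.57 and -0.67) and Mrps15 (-0.44 and -0.51) falling in both. Mrpl38 rose in both (0.35 and 0.44) and Mrps18b in Scnn1b-Tg (0.57), while Mrps23 fell in WT (-1.08) and changed by 0.78 in Scnn1b-Tg without passing.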

How the data were processed

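RNA was sequenced from 12 libraries of 6 pools as reads of 125 bases. Per the study's methods and the labels, the authors aligned reads to mm10 with HISAT2 (unstranded) and obtained estimated counts per gene with StringTie. The deposited values are expected counts that are already whole numbers, so no rounding was needed. Rows were paired with GENCODE M21 symbols (20132 of 20551 IDs, and unmatched rows held 0.258% of counts). Counts were filtered (filterByExpr, minimum count 10), TMM-scaled and tested with edgeR 4.0.16 in R 4.3.3 (quasi-likelihood, group and batch, all 12 libraries), with Benjamini-Hochberg adjustment over 13729 genes and a threshold of 0.05. The script was tested on simulated data. The medium and LPS library of a pool come from the same animals, so the pool pairs them, with correlations of their deviations of 0.21 to 0.50 over all genes and -0.25 to 0.53 over the members. Near-identical genes were found with blastn 2.17.0 (at least 95% identity over 125 bases). Named members were, per complex, up to 3 called members with the largest change and at least 5 CPM, the 5 lowest p where none passed, core subunits and isoform families, and the called genes with the largest changes in each list. Members, lists and rules were chosen with earlier results of these data known. The alternatives included DESeq2 1.42.0 and voom in limma 3.58.1. P-values of the main fit measure the spread between libraries after group and batch, with the 2 libraries of a pool treated as independent. Those with the pool as a block measure the spread of the changes within pools. The values of 1 complex I member are not reported here, and it is kept in all counts and sums.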

Additional observations from a re-analysis of the deposited data

How the results depend on the processing

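The share of all genes that fell in the same fit follows each number of members in brackets. In WT the number of members that fell with LPS was 5 without the batch term (12.2%) and 1 with the 6 libraries compared alone (11.4%). It was 21 with the pool as a replicate block (18.7%) and 17 with the pool as a random effect in voom (19.8%). In Scnn1b-Tg it was 16 with total counts (23.1%), 14 with the 6 libraries alone (19.1%), 22 with the pool as a replicate block (20.9%) and 15 with voom (22.5%). Alternatives chosen after seeing the data gave, in WT and Scnn1b-Tg, 19 and 27 with an offset for transcript length (18.8% and 22.4%). The offset with the replicate block gave 28 and 30 (20.8% and 24%). In WT there was 1 rise with either and without both LPS libraries numbered 17, where 13.3% to 18.2% of all genes rose. Leaving out 1 library at a time gave 5 to 22 falls in WT. There were 22 falls without WT LPS 16 (14.5%) and 5 without WT LPS 18 (11.4%). There were 6 without WT medium 16 (13.5%), WT medium 18 (11.2%) or WT LPS 17 (14.2%). In Scnn1b-Tg 5 to 11 members fell, with 11 without WT LPS 17 (18.2%). The medians were -0.34 to -0.08 in WT and -0.30 to -0.08 in Scnn1b-Tg. The replicate number as a block between genotypes, shared by 17 and 18 alone, moved the median difference in medium to 0.16, and the genotype medians ran from -0.14 to 0.12 in medium and -0.17 to 0.11 with LPS when 1 library was left out. No alternative called a member between genotypes or in the interaction. The cause was not tested.

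Total counts shifted the median of all genes by -0.08 in WT and -0.12 in Scnn1b-Tg. With them the LPS change reversed to -0.07 (WT) and -0.01 (Scnn1b-Tg) for Atp5b, and in Scnn1b-Tg to -0.09 for Uqcrc1 and -0.08 for Atp5d. Uqcrc1 reversed to -0.07 with the length offset and -0.08 with the offset and replicate block. Without both LPS libraries numbered 17, the WT change reversed for Cox5b (0.08), Cox8a (0.07), Cox6b1 (0.12) and Cox7b (0.08), the Scnn1b-Tg change for Cox6a1 (0.00), Atp5g3 (0.00) and Cox4i1 (0.05), and the genotype difference with LPS for Atp5g3 (0.11). With the replicate number as a block the genotype difference reversed in medium for Atp5g1 (0.05) and Cox7b (0.24), and with LPS for Ndufv2 (0.13), Atp5g1 (0.12), Uqcrfs1 (0.10) and Cox7b (0.12). With the length offset and replicate block it reversed in medium for Atp5c1 (0.09), Ndufv2 (0.01), Atp5g1 (0.08) and Cox5a (0.08), and with LPS for Atp5g1 (0.17). Without the batch term it reversed in medium for Ndufv1 (-0.07) and Atp5a1 (-0.06). When 1 library was left out, the LPS change crossed 0 in WT for Uqcrfs1 (-0.09 to 0.09) and Cox7a2 (-0.01 to 0.43), and in Scnn1b-Tg for Atp5f1 (-0.16 to 0.20), Atp5g3 (-0.20 to 0.01) and Cox4i1 (-0.23 to 0.04). The genotype difference did so in medium for Ndufv1 (-0.07 to 0.04), Cox5b (-0.22 to 0.17), Cox6a1 (-0.08 to 0.17) and Cox8a (-0.09 to 0.27), and with LPS for Atp5e (-0.25 to 0.21), Atp5f1 (-0.13 to 0.29), Ndufa4 (-0.39 to 0.03), Ndufs8 (-0.19 to 0.14), Cox5a (-0.11 to 0.07), Cox6a1 (-0.09 to 0.15), Ndufs3 (-0.12 to 0.10), Cox8a (-0.20 to 0.21), Cox6b1 (-0.24 to 0.15), Atp5g3 (-0.14 to 0.09), Cox7a2 (-0.21 to 0.19) and Cox7b (-0.37 to 0.11). None of these reversed values belonged to a member called in that comparison.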
